A study of Mus musculus with 6 samples.

Results

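The genes described here encode the proteasome of mouse cells, its interferon-inducible form called the immunoproteasome, the caps that open it and the chaperones that assemble it. They were picked out by symbol, under a rule that uses no values, but with earlier results of these data known. A row of the deposited gene table was a member when its symbol began with Psm, went on with one of the letters a to g and a number, and carried no pseudogene suffix. This gave 50 of the 55401 rows, and 5 further matches with the suffix -ps were left out. The members fall into 8 genes of core alpha subunits, 8 of core beta subunits and 5 of an immunoproteasome group (Psmb8, Psmb9, Psmb10, Psme1 and Psme2). A further 23 are of regulatory particles, their assembly chaperones and inhibitors, and 4 of assembly chaperones of the core (Psmg). The remaining 2 match the name without being established subunit genes, namely Psmc3ip, a cofactor of meiotic recombination, and Psme2b, a near-identical copy of Psme2.

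The study compared 3 NETs-treated with 3 control samples of wild-type mouse cells by RNA-seq of total RNA. NETs are neutrophil extracellular traps, meshes of chromatin and granule proteins that neutrophils cast out, and the control cells received none. The labels call the cells BMDM (bone marrow-derived macrophages), whereas the titles carry the name BV2, an immortalised mouse microglial line. The sources used here give neither the amount of NETs nor the exposure time, and nothing says that the 3 samples of a group were separate cultures or animals, so p-values reflect the scatter among these libraries alone, and that may be technical.

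The proteasome is the main protease of the cytosol and nucleus and degrades proteins tagged with ubiquitin. Its 20S core is a barrel of outer alpha rings, which gate the entrance, and inner beta rings, where the subunits Psmb5, Psmb6 and Psmb7 cut; the 19S particle on its end binds, unfolds and feeds the substrate. Macrophages can replace the cutting subunits with Psmb8, Psmb9 and Psmb10, and cap the core with PA28 (Psme1 and Psme2), which shifts the peptides made towards those that class I molecules of the major histocompatibility complex present; interferons are the best known inducers of this exchange.

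Total counts per library were between 39994613 and 43686531 in NETs-treated and between 41830940 and 44274445 in control samples, and 15272 genes had enough reads to be tested. Typical macrophage transcripts summed to between 4974 and 5166 CPM (counts scaled to a common library size) in NETs-treated and between 5085 and 5245 CPM in control libraries over a list of 10 genes, although Aif1, Mrc1 and Ccr2 were near 0 in every library. Lyz2 made up most of this sum and was higher in NETs-treated cells (log2 fold change 0.24). In contrast, 7 of the 9 tested genes of the list were lower at an adjusted p of 0.05 (edgeR), with a median log2 fold change of -0.47. Among these were Fcgr1 (-2.34), Csf1r (-1.03) and Spi1 (-0.55). At this threshold 25.5% of all tested genes were higher and 27.2% lower. The lower calls of Adgre1, Cd68 and Mrc1 were each lost in some other settings, with adjusted p up to 0.0595, 0.0559 and 0.0633. A list of 8 microglia markers summed to between 92.8 and 97.1 CPM in NETs-treated and between 193 and 199.9 CPM in control libraries, mostly from Trem2, while Sall1 had no read and P2ry12 averaged 0.129 CPM in NETs-treated and 0.878 CPM in control cells. Of the 6 tested microglia markers 4 were lower and 1 higher, namely Tmem119, with 5.04 ± 0.459 CPM in NETs-treated and 1.44 ± 0.562 CPM in control cells. The lower calls of P2ry12 and Cx3cr1, both with few reads, were lost in several settings, with adjusted p up to 0.0878 and 0.150. A list of 10 neutrophil markers summed to between 9.57 and 15.1 CPM in NETs-treated and between 3.81 and 5.24 CPM in control libraries. S100a8, higher in NETs-treated cells, made up most of it, Cxcr2, with 0.809 CPM in NETs-treated and 1.60 CPM in control cells on average, most of the rest, and 6 of the 10, Ly6g, S100a9 and Mpo among them, had no read in any library. The sum of 4 dendritic cell markers was between 4.30 and 5.61 CPM in NETs-treated and between 4.90 and 5.44 CPM in control libraries. Markers of T cells, B cells and fibroblasts stayed at or below 0.282 CPM in sum, and the part of these marker differences in the results below was not tested. In such bulk samples, fewer cells that carry a transcript and less of it per cell cannot be told apart.

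Of the 50 members, 48 had enough reads for a test. Psma8, an alpha subunit of the testis, had no read in any library, and Psmb11, the beta subunit of the thymus, had 8 reads in NETs-treated replicate 2 and none elsewhere. The NETs-treated cells had more transcript of 16 of the 48 tested members (33.3%) and less of 9 (18.8%), while 23 did not pass. The threshold was an adjusted p of 0.05, from the quasi-likelihood test of edgeR with p-values adjusted by Benjamini-Hochberg over all tested genes, of which 25.5% passed as higher and 27.2% as lower, together 52.7%. The median log2 fold change, NETs-treated over control, was 0.14 for the members and -0.02 for all tested genes. Most shifts were small, and 3 members passed with at least a 2-fold change, against 19.3% of all tested genes. They were Psmd5 on the higher side, where 7.39% of all tested genes stood, and Psmb9 and Psmb10 on the lower side, where 11.9% stood.

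Higher and lower genes were spread unevenly over the groups. All 5 immunoproteasome and PA28 genes were lower in NETs-treated cells, none of the 7 tested alpha genes was lower, and 12 of the 23 regulatory genes were higher. Over all tested genes, 27.2% were lower and 25.5% higher. The calls of the PA28 genes Psme1 and Psme2 did not hold in every other setting. Summed over a group, the immunoproteasome and PA28 transcripts came to 121 ± 5.50 CPM in NETs-treated and 196 ± 8.56 CPM in control cells (SD, n = 3 each), a ratio of 0.618. The regulatory group summed to 3165 ± 79.0 CPM in NETs-treated and 2613 ± 32.0 CPM in control cells, a ratio of 1.21. For the alpha genes the sums were 984 ± 59.1 CPM in NETs-treated and 748 ± 27.6 CPM in control cells, a ratio of 1.31, and for the constitutive beta genes 877 ± 27.4 CPM in NETs-treated and 886 ± 43.3 CPM in control cells, a ratio of 0.990. No test was made over these sums.

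**Figure D1:**
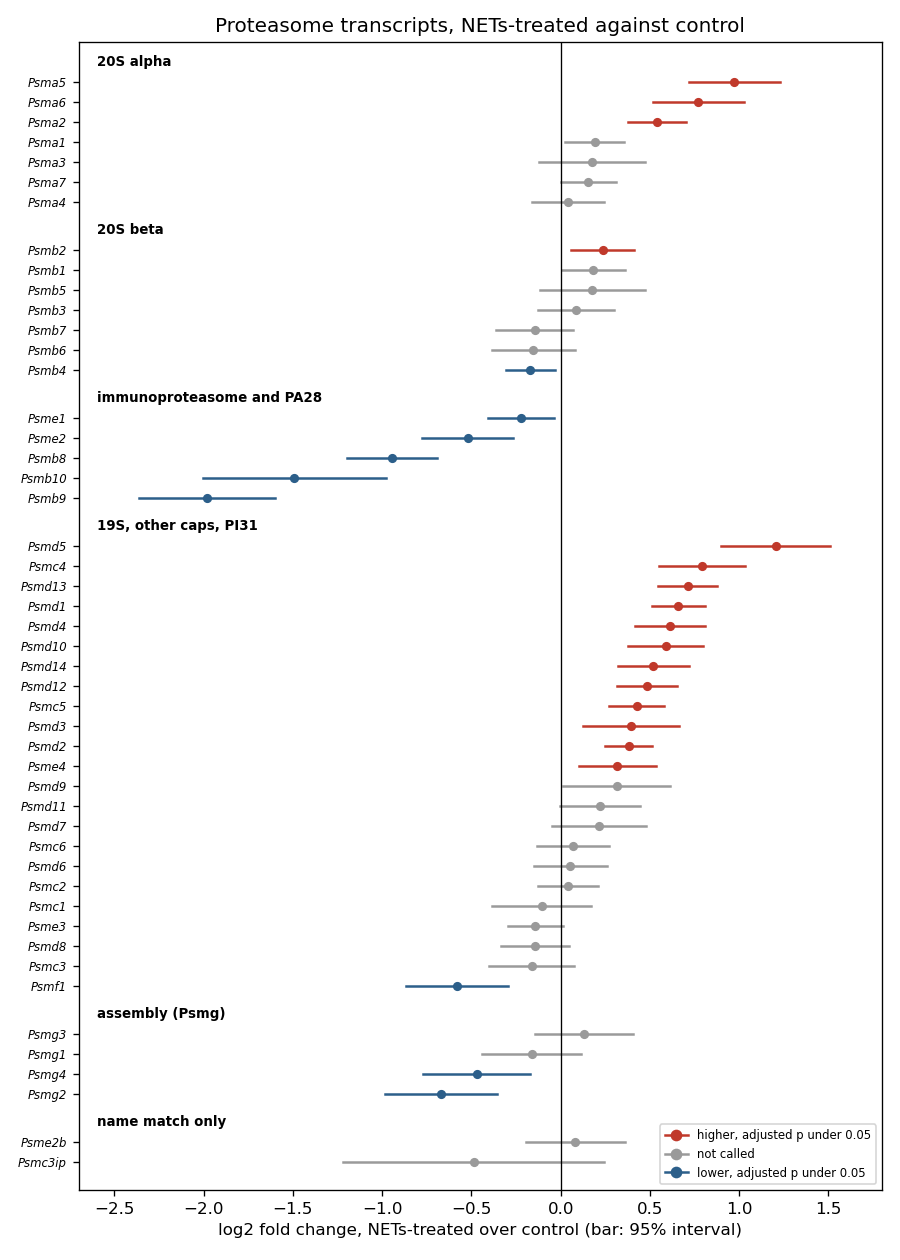
Log2 fold change of each tested member, NETs-treated over control, with its 95% interval (not adjusted for the number of genes), by group of members. Red points passed as higher, blue as lower and grey did not pass an adjusted p of 0.05. The 5 immunoproteasome and PA28 genes all lie left of 0, with Psmb9 farthest at -1.98, whereas the regulatory genes that passed, other than Psmf1, lie to the right, with Psmd5 farthest at 1.20.

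**Figure D2:**
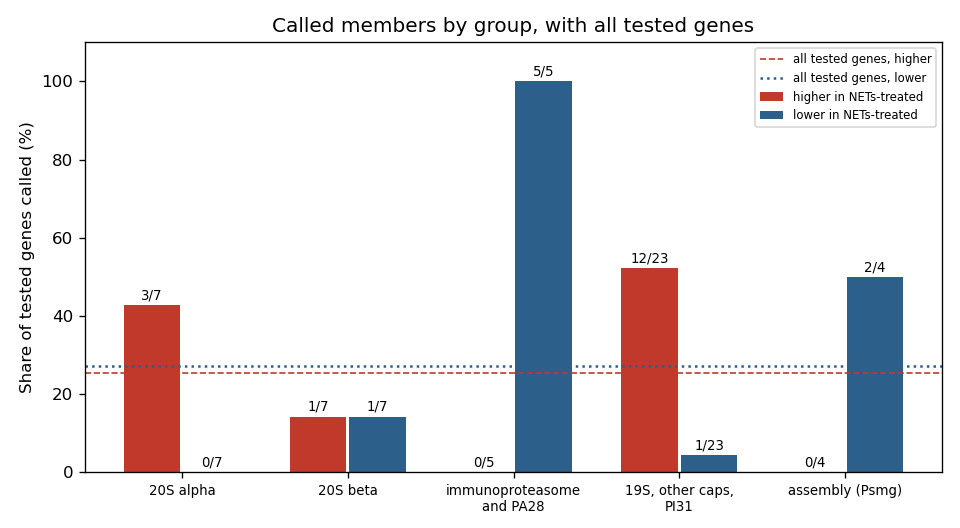
Share of the tested genes of each group that passed an adjusted p of 0.05 as higher (red) or lower (blue) in NETs-treated cells, in percent, with the counts above the bars; the lines give the shares over all tested genes, 25.5% higher (dashed) and 27.2% lower (dotted). The lower share is 5 of 5 in the immunoproteasome and PA28 group, where the calls of Psme1 and Psme2 did not hold in every other setting. The higher share is 12 of 23 in the group labelled 19S, other caps and PI31. That group also holds the chaperones of the 19S base, Psmd5, Psmd9 and Psmd10.

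The largest change of any member was that of Psmb9 (ENSMUSG00000096727.3), the immunoproteasome subunit that takes the place of Psmb6. It stood at 3.72, 3.29 and 3.91 CPM in NETs-treated libraries, against 16.9, 12.9 and 13.3 CPM in control libraries. Every NETs-treated library lay far below every control library, and the mean was 3.95-fold lower (log2 fold change -1.98 ± 0.17 SE, adjusted p = 2.59e-05, edgeR quasi-likelihood test). All NETs-treated libraries lay below all control libraries, by any distance, for 32.5% of all tested genes. The gene lies on chromosome 17 from 34181987 to 34187764, on the minus strand of GRCm38, inside the major histocompatibility complex and head to head with Tap1, the gene of a chain of the peptide transporter that carries proteasome products into the endoplasmic reticulum. The exons of the 2 genes overlap over 212 bp on opposite strands, and the sources do not say whether reads were counted by strand, so some reads of one may have been counted for the other.

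Psmb10 (ENSMUSG00000031897.9; chromosome 8, 105935735 to 105938444, minus strand), which replaces Psmb7, had 9.43, 5.91 and 5.06 CPM in NETs-treated libraries, against 20.9, 18.7 and 17.8 CPM in control libraries. The groups did not overlap, though NETs-treated replicate 1 stood apart from the other two of its group. The mean was 2.81-fold lower (log2 fold change -1.49 ± 0.22 SE, adjusted p = 0.000639). Psmb8 (ENSMUSG00000024338.15; chromosome 17, 34197721 to 34201454, plus strand), which replaces Psmb5 and is the most abundant of these subunit transcripts per length, had 33.6, 37.8 and 43.6 CPM in NETs-treated libraries, against 80.6, 71.1 and 69.8 CPM in control libraries. Again every NETs-treated value was below every control value, and the mean was 1.93-fold lower (log2 fold change -0.95 ± 0.11 SE, adjusted p = 0.000157). These 3 calls held in each of the 16 other settings tried.

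Both PA28 genes showed smaller differences, which depend on the samples, on the processing or on how reads were assigned. Psme2 (ENSMUSG00000079197.10; chromosome 14, 55587441 to 55591113, minus strand), PA28 beta, had 14.96, 15.5 and 16.5 CPM in NETs-treated libraries, against 20.5, 22.1 and 24.8 CPM in control libraries, without overlap between the groups. The fall was small but passed (log2 fold change -0.52 ± 0.11 SE, adjusted p = 0.00433). Its copy Psme2b, an annotated gene on chromosome 11 that is 99.4% identical over 794 bp, had 23.7, 20.9 and 26.0 CPM in NETs-treated libraries, against 24.9, 20.9 and 21.0 CPM in control libraries. The copy thus had more reads than Psme2 itself and its groups overlapped (log2 fold change 0.08 ± 0.12 SE, adjusted p = 0.598). With the reads of both added, a setting chosen after seeing the data, the sum was 38.6, 36.4 and 42.5 CPM in NETs-treated libraries, against 45.3, 43.0 and 45.7 CPM in control libraries. The groups of this sum did not overlap, but its log2 fold change of -0.19 ± 0.08 (SE) did not pass (adjusted p = 0.0924), so the size and the call for Psme2 are uncertain.

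Psme1 (ENSMUSG00000022216.17; chromosome 14, 55578123 to 55581529, plus strand), PA28 alpha, had 58.2, 54.5 and 58.5 CPM in NETs-treated libraries, against 66.0, 71.9 and 62.0 CPM in control libraries. The groups did not overlap, but the gap between the closest values was narrow, and the log2 fold change of -0.22 ± 0.08 (SE) only just passed (adjusted p = 0.0449). It did not pass in 10 of 16 other settings, among them those without NETs-treated replicate 1 (adjusted p = 0.0676), NETs-treated replicate 2 (0.191), control replicate 1 (0.0975) or control replicate 2 (0.173).

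The 3 constitutive cutting subunits, which the immunoproteasome subunits displace, did not pass in either direction. Psmb5, with chymotrypsin-like activity, had 90.5, 93.3 and 127 CPM in NETs-treated libraries, against 97.1, 88.5 and 89.4 CPM in control libraries (log2 fold change 0.18, 95% interval -0.12 to 0.47, adjusted p = 0.283). Its groups overlapped, and NETs-treated replicate 3 alone was high. Psmb6, with caspase-like activity, had 197, 174 and 156 CPM in NETs-treated libraries, against 215, 182 and 188 CPM in control libraries (-0.15, 95% interval -0.38 to 0.08, adjusted p = 0.237). Psmb7, with trypsin-like activity, had 162, 138 and 157 CPM in NETs-treated libraries, against 186, 153 and 167 CPM in control libraries (-0.15, 95% interval -0.36 to 0.07, adjusted p = 0.223). Both pairs of groups overlapped, and the intervals leave room for changes of either sign.

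**Figure D3:**
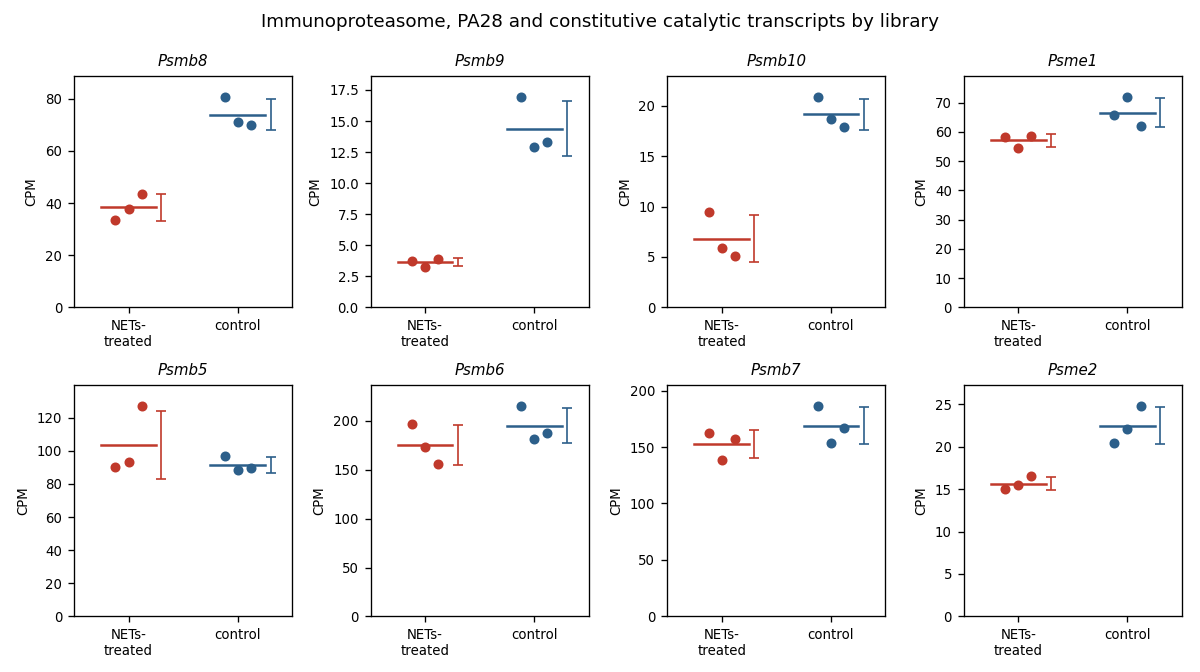
Transcript level in CPM of the immunoproteasome, PA28 and constitutive cutting subunit genes in each library, NETs-treated on the left and control on the right of each panel; lines are means and bars are SD (n = 3). The groups stand apart for Psmb8, Psmb9, Psmb10, Psme1 and Psme2 and overlap for Psmb5, Psmb6 and Psmb7. All NETs-treated libraries lay below all control libraries for 32.5% of all tested genes.

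The balance between each inducible subunit and the constitutive one it replaces does not depend on how libraries are scaled. The log2 ratio of Psmb8 to Psmb5 counts was -1.43, -1.30 and -1.54 in NETs-treated libraries, against -0.27, -0.32 and -0.36 in control libraries, a difference of -1.11. For Psmb9 to Psmb6 the log2 ratios were -5.73, -5.72 and -5.32 in NETs-treated libraries, against -3.67, -3.82 and -3.82 in control libraries, a difference of -1.82. For Psmb10 to Psmb7 they were -4.10, -4.55 and -4.96 in NETs-treated libraries, against -3.16, -3.03 and -3.23 in control libraries, a difference of -1.40. In all 3 pairs every NETs-treated ratio was below every control ratio; no test was made on the ratios.

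Set per transcript length, the inducible subunit was the minor form in both groups. Psmb8 made up 17.1% ± 1.17 of the summed Psmb8 and Psmb5 level in NETs-treated and 30.8% ± 0.651 in control cells (SD, n = 3 each). The share of Psmb9 with Psmb6 was 1.22% ± 0.201 in NETs-treated and 4.15% ± 0.247 in control cells, and that of Psmb10 with Psmb7 was 3.77% ± 1.07 in NETs-treated and 9.13% ± 0.571 in control cells. These are shares of transcripts, and protein was not measured.

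**Figure D4:**
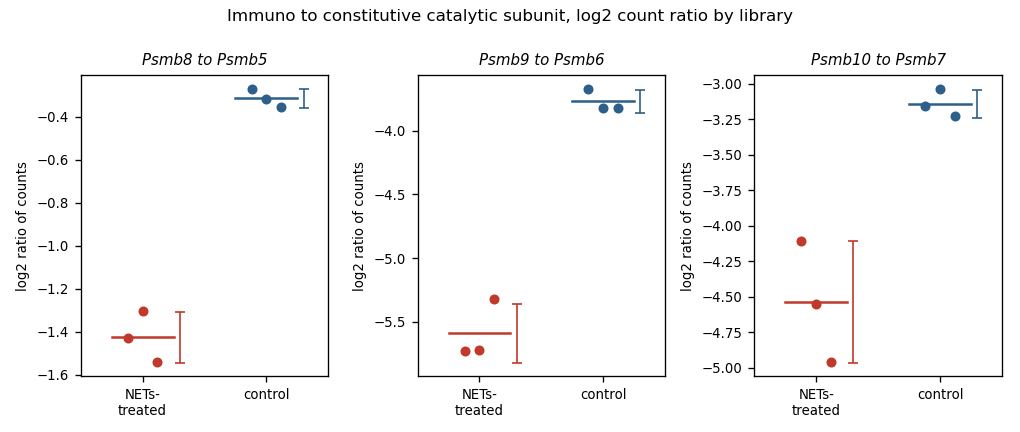
Log2 ratio of the counts of each immunoproteasome subunit to those of the constitutive subunit it replaces, per library, NETs-treated on the left and control on the right; lines are means and bars are SD (n = 3), and the vertical axes differ between panels. All NETs-treated ratios lie below all control ratios, by 1.11 (Psmb8 to Psmb5), 1.82 (Psmb9 to Psmb6) and 1.40 (Psmb10 to Psmb7) on the log2 scale between the group means.

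Promoter windows are shown for the 3 genes of the immunoproteasome and PA28 group that hold one of 3 short motifs: a pair of elements through which interferons act on genes, and the CCAAT box, a general promoter element. RefSeq windows of build GRCm38.p6, from 250 bases before to 50 after the annotated start, were matched for 42 of the 50 members. Capitals mark matches, on either strand, of the interferon-stimulated response element (GAAA and a further GAAA with 2 bases between), the gamma activated site (TTC and GAA with 3 bases between) or the CCAAT box, and no marked match overlaps one of another motif searched. The windows are chr17:34187281-34187580 on the minus strand for Psmb9, chr17:34197945-34198244 on the plus strand for Psmb8 and chr14:55578244-55578543 on the plus strand for Psme1.
Psmb9: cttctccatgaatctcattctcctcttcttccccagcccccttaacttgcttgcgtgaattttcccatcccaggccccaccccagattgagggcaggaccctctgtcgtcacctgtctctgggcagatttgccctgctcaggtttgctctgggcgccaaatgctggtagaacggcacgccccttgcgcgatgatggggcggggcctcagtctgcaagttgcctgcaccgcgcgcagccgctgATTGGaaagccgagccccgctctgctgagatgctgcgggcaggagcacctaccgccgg
Psmb8: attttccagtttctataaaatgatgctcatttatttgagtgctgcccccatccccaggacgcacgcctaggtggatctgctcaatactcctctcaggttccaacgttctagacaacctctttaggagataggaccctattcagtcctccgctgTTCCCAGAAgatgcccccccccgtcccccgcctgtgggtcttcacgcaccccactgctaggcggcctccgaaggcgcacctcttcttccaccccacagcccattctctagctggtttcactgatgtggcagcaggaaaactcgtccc
Psme1: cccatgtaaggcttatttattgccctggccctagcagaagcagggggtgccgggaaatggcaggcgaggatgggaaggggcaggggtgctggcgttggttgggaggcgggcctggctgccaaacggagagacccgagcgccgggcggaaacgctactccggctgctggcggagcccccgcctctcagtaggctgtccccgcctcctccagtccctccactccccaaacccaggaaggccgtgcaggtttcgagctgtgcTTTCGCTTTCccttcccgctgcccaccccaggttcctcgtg

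In the Psmb9 window the capitals are a CCAAT match read on the other strand, from base -8 to -4 of the start counted as 0. The window of Tap1 shares 275 bases with that of Psmb9 and reads the same stretch from the opposite strand. Tap1 had 22.6, 18.1 and 17.8 CPM in NETs-treated libraries, against 57.4, 58.0 and 59.1 CPM in control libraries (log2 fold change -1.58 ± 0.11 SE, adjusted p = 8.26e-06), so both genes that start from this stretch were lower. In the Psmb8 window the gamma activated site match runs from base -97 to -89, and in the Psme1 window the interferon-stimulated response element match, read on the other strand, lies from base 9 to 18, after the start. The windows of Psmb10 and Psme2 held none of these 3 motifs.

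Across the members, the interferon-stimulated response element stood in the windows of 5 of 42 members (11.9%), those of Psmb3, Psmd4, Psmd9, Psme1 and Psmg4, against 3.99% of the 27025 genes in the promoter table. Of these genes Psme1 and Psmg4 were lower and Psmd4 higher in NETs-treated cells, while Psmb3 and Psmd9 did not pass. The gamma activated site was found for 3 of 42 (7.14%), against 9.55% of all genes, and the CCAAT box for 15 (35.7%), against 41.1%. Also searched were the core of the antioxidant type of element (TGAC and GC with 3 bases between), found for 6 of 42 members (14.3%) and 13.99% of all genes, and an NF-kB site (GGG and CC with 5 bases between), found for 24 (57.1%) and 53.5%. A match is a run of letters, not a shown binding site.

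Among the alpha ring genes, 3 of 7 tested were higher and 0 lower (all tested genes: 25.5% and 27.2%). Their median log2 fold change was 0.19, with a range of 0.04 to 0.97. Psma5 (ENSMUSG00000068749.9), an alpha ring subunit, had 106, 117 and 144 CPM in NETs-treated libraries, against 60.3, 64.7 and 62.3 CPM in control libraries. All NETs-treated values were above all control values, with replicate 3 the highest (log2 fold change 0.97 ± 0.11 SE, adjusted p = 0.000144). At the other end Psma4 had 95.3, 95.4 and 81.6 CPM in NETs-treated libraries, against 82.4, 90.9 and 91.3 CPM in control libraries, which overlap (0.04 ± 0.09 SE, adjusted p = 0.718).

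Psma6 had 182, 207 and 237 CPM in NETs-treated libraries, against 109, 130 and 128 CPM in control libraries (log2 fold change 0.77 ± 0.11 SE, adjusted p = 0.000508). Psma2 averaged 119 ± 5.77 CPM in NETs-treated and 82.0 ± 3.00 CPM in control cells (0.54 ± 0.07 SE, adjusted p = 0.000309). Neither gene's groups overlapped, and together with Psma5 these were the alpha genes that passed. Psma1 and Psma7 had every NETs-treated value above every control value without passing (adjusted p = 0.0548 and 0.0834). Such a separation was seen for 29.9% of all tested genes. Psma1 passed without NETs-treated replicate 1 (adjusted p = 0.0109) and Psma7 without NETs-treated replicate 3 (adjusted p = 0.0186).

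Some alpha genes have transcribed near-identical copies. The 2 copies of Psma5 with most reads, Psma5-ps (98.6% identical over 952 bp) and Gm12989 (97.5% over 734 bp), were also higher, with log2 fold changes of 0.72 and 0.74, and with their reads added Psma5 still passed. Psma3 has the copy Gm13835, which is 100% identical over 685 bp and held reads equal to 64.5% of those of Psma3. Summed, this pair had 144, 172 and 204 CPM in NETs-treated libraries, against 141, 160 and 158 CPM in control libraries, which overlap (log2 fold change 0.18 ± 0.12 SE, adjusted p = 0.240). Alone, Psma3 did not pass either (adjusted p = 0.286), except without NETs-treated replicate 1, where its log2 fold change was 0.33 (adjusted p = 0.0175).

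**Figure D5:**
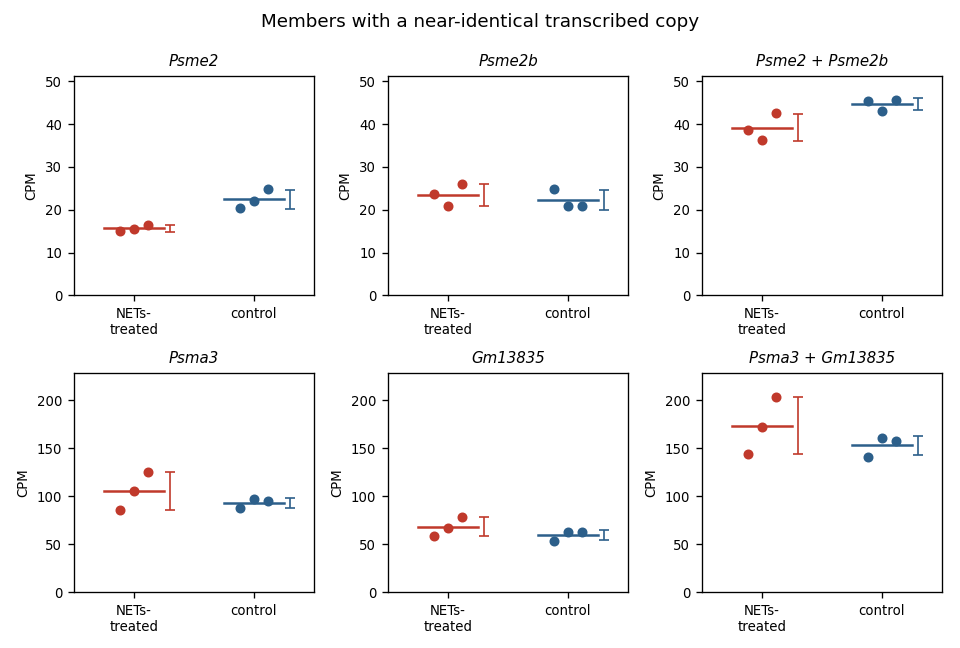
Level in CPM of Psme2 and Psma3 (left), of a near-identical copy of each (middle) and of the sum (right) in each library, NETs-treated on the left and control on the right of each panel; lines are means and bars are SD (n = 3). For Psme2 the groups stand apart, while those of its copy Psme2b overlap and their sums lie closer together; for Psma3 and Gm13835 the groups overlap in all panels.

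Among the constitutive beta genes, 1 of 7 tested passed as higher (0 with scaling by library size only) and 1 as lower, both by little. Over all tested genes, 25.5% passed as higher and 27.2% as lower. Psmb2, a subunit without a cutting site, had 88.3, 84.5 and 78.2 CPM in NETs-treated libraries, against 67.5, 74.3 and 71.2 CPM in control libraries (log2 fold change 0.24 ± 0.08 SE, adjusted p = 0.0305). Psmb4, also without a cutting site, had 151, 150 and 150 CPM in NETs-treated libraries, against 174, 165 and 169 CPM in control libraries (-0.17 ± 0.06 SE, adjusted p = 0.0394). Neither pair of groups overlapped. Both calls were fragile: that of Psmb4 was lost whichever of the 6 libraries was left out (adjusted p between 0.0537 and 0.154). That of Psmb2 was lost without NETs-treated replicate 2 (adjusted p = 0.0698), control replicate 1 (0.112), control replicate 2 (0.0549) or control replicate 3 (0.0930), and when scaling used library size only (0.107). Psmb1 and Psmb3, the remaining structural beta genes, did not pass (adjusted p = 0.0758 and 0.469), although Psmb1 did without NETs-treated replicate 1 (adjusted p = 0.0348).

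The regulatory group was the largest and the one with most rises. In it 12 of 23 genes were higher (52.2%), against 25.5% of all tested genes. Only 1 was lower (4.35%, or 3 genes with scaling by library size only), against 27.2%, and 10 did not pass. In 13 of the 23 every NETs-treated library lay above every control library, which holds for 29.9% of all tested genes, and in 3 it lay below, against 32.5%. The median log2 fold change of the group was 0.32.

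Psmd5 (ENSMUSG00000026869.12; chromosome 2, 34849734 to 34874968, minus strand), a chaperone that binds the 19S base during assembly and is not part of the finished particle, rose most. It had 92.9, 113 and 136 CPM in NETs-treated libraries, against 46.9, 47.7 and 53.6 CPM in control libraries. The groups lay far apart, with a wider spread among the NETs-treated libraries, and the mean was 2.30-fold higher (log2 fold change 1.20 ± 0.13 SE, adjusted p = 0.000121). Psmd10, another base chaperone, also known as gankyrin, averaged 42.1 ± 2.60 CPM in NETs-treated and 28.0 ± 2.15 CPM in control cells (0.59 ± 0.09 SE, adjusted p = 0.000810). The third of them, Psmd9, had 23.2, 19.5 and 21.8 CPM in NETs-treated libraries, against 19.5, 14.8 and 17.5 CPM in control libraries, and did not pass (0.31 ± 0.13 SE, adjusted p = 0.0733).

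All 3 scaffold and receptor subunits of the base rose, as did 25.5% of all tested genes. Psmd1, a scaffold that binds ubiquitin receptors, had 187, 189 and 187 CPM in NETs-treated libraries, against 113, 118 and 125 CPM in control libraries (log2 fold change 0.66 ± 0.07 SE, adjusted p = 6.37e-05). The NETs-treated values were nearly equal and all well above those of the control. Psmd2, the other scaffold, averaged 518 ± 21.5 CPM in NETs-treated and 398 ± 8.63 CPM in control cells (0.38 ± 0.06 SE, adjusted p = 0.000743). Psmd4, a receptor for ubiquitin chains, averaged 199 ± 20.5 CPM in NETs-treated and 130 ± 4.80 CPM in control cells (0.61 ± 0.09 SE, adjusted p = 0.000433).

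The 6 ATPases of the base, whose ring unfolds substrates, split. Psmc4 averaged 104 ± 13.8 CPM in NETs-treated and 60.3 ± 2.93 CPM in control cells (log2 fold change 0.79 ± 0.10 SE, adjusted p = 0.000315). Psmc5 averaged 83.5 ± 0.805 CPM in NETs-treated and 62.2 ± 2.22 CPM in control cells (0.42 ± 0.07 SE, adjusted p = 0.000834). The groups of the other 4, Psmc1, Psmc2, Psmc3 and Psmc6, overlapped and their log2 fold changes lay between -0.16 and 0.07 without passing. Leaving out NETs-treated replicate 1 gave Psmc1 a log2 fold change of -0.24 that passed (adjusted p = 0.0363).

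In the lid, which removes ubiquitin chains, 4 of the 8 genes among the members rose, against 25.5% of all tested genes. Psmd13 averaged 102 ± 5.74 CPM in NETs-treated and 62.2 ± 1.43 CPM in control cells (log2 fold change 0.71 ± 0.07 SE, adjusted p = 7.35e-05), though its exons overlap those of Sirt3 on the other strand over 342 bp. Psmd14, the deubiquitinase of the lid, averaged 147 ± 14.9 CPM in NETs-treated and 103 ± 5.15 CPM in control cells (0.52 ± 0.09 SE, adjusted p = 0.00125). Psmd12 rose by a log2 fold change of 0.48 (adjusted p = 0.000667). Psmd3 had 170, 162 and 124 CPM in NETs-treated libraries, against 122, 114 and 110 CPM in control libraries, so that NETs-treated replicate 3 came close to the control (0.40 ± 0.12 SE, adjusted p = 0.0205). The call for Psmd3 was lost without NETs-treated replicate 2 (adjusted p = 0.0635), control replicate 2 (0.0687) or control replicate 3 (0.0815), and without a filter on low counts (0.0505).

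Psmd6, Psmd7, Psmd8 and Psmd11 of the lid did not pass, with log2 fold changes between -0.14 and 0.22. Psmd8 had every NETs-treated value below every control value, at 354, 340 and 288 CPM in NETs-treated libraries, against 358, 358 and 368 CPM in control libraries, and an adjusted p of 0.178. Psmd11 passed without NETs-treated replicate 3, with a log2 fold change of 0.31 (adjusted p = 0.00944).

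The other caps and the inhibitor went apart. Psmf1, which encodes PI31, a protein that inhibits the core in vitro, was the regulatory gene with the lowest fold change and the one that fell. It had 31.9, 29.0 and 22.7 CPM in NETs-treated libraries, against 40.7, 43.3 and 41.0 CPM in control libraries, without overlap (log2 fold change -0.58 ± 0.12 SE, adjusted p = 0.00434). Psme4, which encodes the cap PA200, averaged 175 ± 15.7 CPM in NETs-treated and 140 ± 13.1 CPM in control cells (0.32 ± 0.10 SE, adjusted p = 0.0212). This call was lost without NETs-treated replicate 2 (adjusted p = 0.0700), control replicate 1 (0.0811) or control replicate 3 (0.0573), and when scaling used library size only (0.0600). Psme3, the nuclear PA28 gamma that interferon does not induce, had 104, 110 and 110 CPM in NETs-treated libraries, against 114, 124 and 120 CPM in control libraries, and did not pass (-0.14 ± 0.07 SE, adjusted p = 0.108).

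Of the 4 Psmg chaperones, which build the alpha ring, 2 were lower and none higher (all tested genes: 27.2% and 25.5%). Psmg2 had 18.4, 21.3 and 26.8 CPM in NETs-treated libraries, against 33.6, 35.2 and 37.2 CPM in control libraries (log2 fold change -0.67 ± 0.14 SE, adjusted p = 0.00340). Psmg4 had 9.48, 9.18 and 8.38 CPM in NETs-treated libraries, against 13.1, 13.1 and 11.3 CPM in control libraries (-0.47 ± 0.13 SE, adjusted p = 0.0152). No NETs-treated value of either gene reached the control values, but the call for Psmg4 was lost without control replicate 1 (adjusted p = 0.0581) or control replicate 2 (0.0627). Psmg1, the partner of Psmg2 in a heterodimer, had a log2 fold change of -0.16 and did not pass (adjusted p = 0.293). Psmg3, the partner of Psmg4, had 13.7, 13.5 and 11.8 CPM in NETs-treated libraries, against 12.1, 12.3 and 11.3 CPM in control libraries, which overlap (0.13 ± 0.12 SE, adjusted p = 0.395).

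Psmc3ip, which is not a subunit gene, had 8.47, 8.13 and 3.24 CPM in NETs-treated libraries, against 10.1, 9.30 and 8.46 CPM in control libraries (log2 fold change -0.49 ± 0.32 SE, adjusted p = 0.235). Its groups overlapped, and its exons share 385 bp with Mlx on the other strand. Opposite-strand exon overlaps were also found for Psmb7 with Nek6 (405 bp), Psmc3 with Slc39a13 (215 bp) and Psme1 with Emc9 (14 bp), so their counts carry the same uncertainty.

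Levels between genes were compared as CPM per kb of transcript. In control cells the core subunit transcripts ran over a wide range, and among the tested ones Psmb6 was highest and Psmb9, which can take its place, lowest. Psmb6 had 220 ± 25.3 CPM per kb in NETs-treated and 245 ± 22.2 CPM per kb in control cells, and Psmb9 had 2.69 ± 0.233 CPM per kb in NETs-treated and 10.6 ± 1.65 CPM per kb in control cells. Of the tested constitutive core genes Psma2 was lowest in control cells, at 40.9 ± 1.98 CPM per kb in NETs-treated and 28.2 ± 1.03 CPM per kb in control cells. Within the 19S genes Psmd8 was highest, at 212 ± 22.6 CPM per kb in NETs-treated and 235 ± 3.63 CPM per kb in control cells. Psmd5 was among the lowest in control cells, with 11.2 ± 0.828 CPM per kb, and had 25.9 ± 4.86 CPM per kb in NETs-treated cells. These values rest on a single annotated transcript per gene, the longest principal one.

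The NETs-treated libraries spread more than the control libraries. The SD of log2 CPM was larger in NETs-treated than in control cells for 34 of the 48 tested members, near the 69.1% of all tested genes for which it was larger. The SD had a median over members of 0.13 in NETs-treated and 0.07 in control cells, and over all tested genes of 0.18 in NETs-treated and 0.11 in control cells. The NETs-treated library farthest from the middle one of its group was replicate 3 for 24 members, replicate 1 for 16 and replicate 2 for 8.

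Genes that act on the proteasome without being members were taken as lists. Of 14 genes of cofactors and ubiquitin receptors, 1 was higher and 3 were lower, with a median log2 fold change of 0.09. Of all tested genes, 25.5% were higher and 27.2% lower. Ubqln2, a shuttle that brings ubiquitinated proteins to the proteasome, was lower (-0.93 ± 0.10 SE, adjusted p = 8.71e-05), as were Zfand5, an activator of the 26S particle (-0.66 ± 0.07 SE, adjusted p = 0.000102), and Ecpas, an adaptor (-0.36 ± 0.07 SE, adjusted p = 0.00372). Zfand2a, a stress-induced partner of the 19S particle, was higher (0.47 ± 0.08 SE, adjusted p = 0.00100). Adrm1, Sem1, Uchl5 and Usp14, which bind the 19S particle as receptors, subunit or deubiquitinases, did not pass.

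Pomp, the chaperone needed to complete the 20S core, had 72.4, 73.8 and 82.8 CPM in NETs-treated libraries, against 45.6, 45.8 and 46.0 CPM in control libraries, far apart (log2 fold change 0.74 ± 0.08 SE, adjusted p = 8.76e-05). Pomp thus went the other way from Psmg2 and Psmg4. Fbxo7, a partner of PI31, was lower (-0.98 ± 0.20 SE, adjusted p = 0.00306), and Akirin2, which brings proteasomes into the nucleus, did not pass (0.22 ± 0.11 SE, adjusted p = 0.107). Paaf1 was not analysed here.

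Nfe2l1 encodes the transcription factor that raises subunit genes when the proteasome is impaired. Its transcript averaged 124 ± 15.5 CPM in NETs-treated and 213 ± 11.2 CPM in control cells (log2 fold change -0.78 ± 0.10 SE, adjusted p = 0.000210). In the list of 8 genes around it 4 were higher and 2 lower (all tested genes: 25.5% and 27.2%), with a median of 0.21. Ngly1, the enzyme that removes sugars from the Nfe2l1 protein, was also lower (-0.71 ± 0.11 SE, adjusted p = 0.000999), while the partner genes Mafk (1.15 ± 0.11 SE, adjusted p = 4.53e-05) and Maff (0.98 ± 0.10 SE, adjusted p = 6.81e-05) were higher. Ddi2, the protease that cuts Nfe2l1 free, and the related factor Nfe2l2 were higher too, with log2 fold changes of 0.38 and 0.49. Vcp and Mafg did not pass.

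Of 6 genes of ubiquitin supply, 3 were higher and 0 lower (all tested genes: 25.5% and 27.2%), with a median of 0.23. Uba6, an enzyme that activates ubiquitin, averaged 195 ± 32.2 CPM in NETs-treated and 69.7 ± 8.71 CPM in control cells (log2 fold change 1.49 ± 0.14 SE, adjusted p = 4.13e-05). Rps27a, which encodes ubiquitin fused to a ribosomal protein, was higher (0.92 ± 0.19 SE, adjusted p = 0.00411). Ubb, a polyubiquitin gene, had 703, 529 and 313 CPM in NETs-treated libraries, against 754, 726 and 723 CPM in control libraries, and did not pass (adjusted p = 0.10) with its NETs-treated values far apart. The third call among the rises, that of Uba1 (0.23, adjusted p = 0.0206), was lost without control replicate 1 (adjusted p = 0.0772), control replicate 2 (0.0643) or control replicate 3 (0.0733), and when scaling used library size only (0.0823).

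Most regulators known to act on the immunoproteasome genes were lower. Of 9 genes of interferon signalling and class I regulation, 6 were lower and 2 higher, with a median log2 fold change of -0.50. The shares over all tested genes were 27.2% lower and 25.5% higher. Irf9 averaged 10.3 ± 1.47 CPM in NETs-treated and 29.4 ± 0.893 CPM in control cells (-1.51 ± 0.12 SE, adjusted p = 2.24e-05), and Irf8, a macrophage regulator of these genes, 30.1 ± 6.88 CPM in NETs-treated and 75.5 ± 5.26 CPM in control cells (-1.33 ± 0.15 SE, adjusted p = 0.000139). Nlrc5, the transactivator of class I genes, was lower as well (-0.79 ± 0.07 SE, adjusted p = 2.58e-05), and the kinase gene Jak2 was higher (0.81 ± 0.11 SE, adjusted p = 0.000417). The calls of 2 others in the list, Irf1 (lower) and Ifngr2 (higher), were lost in several settings, with adjusted p up to 0.140 for Irf1 and 0.104 for Ifngr2. Whether these regulators had a part in the levels of the subunit genes was not tested.

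Of 9 genes downstream of the immunoproteasome in peptide supply to class I molecules, 7 were lower and 1 higher (all tested genes: 27.2% and 25.5%), with a median of -0.49. Besides Tap1, these were led by Erap1, the peptidase that trims peptides in the endoplasmic reticulum, with 17.8 ± 2.64 CPM in NETs-treated and 62.1 ± 2.31 CPM in control cells (log2 fold change -1.80 ± 0.11 SE, adjusted p = 5.28e-06). The chaperone genes Calr (-1.15 ± 0.09 SE, adjusted p = 2.05e-05) and Pdia3 (-0.78 ± 0.06 SE, adjusted p = 1.45e-05) were lower too. B2m, the class I light chain, was higher (0.27 ± 0.07 SE, adjusted p = 0.0156), a call lost without NETs-treated replicate 2 (adjusted p = 0.0595) or control replicate 1 (0.0709), and when scaling used library size only (0.0577).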

How the data were processed

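RNA-seq was done on 3 NETs-treated and 3 control samples, grouped by the treatment in the labels. Libraries were strand-specific and made from total RNA, per the labels' protocols. HISAT2, DESeq2 and the builds mm10 (mouse) and rn6 (rat) are named in the submitters' processing notes, without roles or versions. All gene identifiers are of mouse. How reads were counted, with which annotation and with or without strand, is not given in the sources used here. Overlapping genes and near-identical copies may therefore share reads.

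The authors deposited 1 table of 55401 genes that gives a raw read count for each gene in each sample, per the file headers. Beside the raw values the authors give normalised counts, a signal in which the count is divided by a size factor of its library. The deposited table further lists a log2 fold change of the authors for each gene, and a p-value before and after adjustment. Of its columns of per-sample values, 0 were left unused.

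Raw counts were tested with edgeR 4.0.16 in R 4.3.3 (quasi-likelihood test, two-sided, all 6 samples, TMM scaling, minimum count 10, minimum total 15). The 15272 genes kept held 99.9% of all counts, and the biological coefficient of variation was 18.5%. P-values were adjusted over all tested genes by the Benjamini-Hochberg method, with a threshold of 0.05. Each SE was derived from the log2 fold change and its F statistic, and CPM values were computed here with TMM scaling. The procedure was also run on simulated data in which few genes were changed. In the real data 52.7% of tested genes passed, so the simulation does not show how it performs there. No libraries of one group were alike within sampling noise (chi-square per gene from 9.77 to 77.2), so each was counted as a separate sample.

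The members, gene lists and motifs were chosen with earlier results of these data known. A few genes of the chosen lists are not reported here and were left out of the counts and sums of those lists. Values in every sample are given for the immunoproteasome and PA28 genes, Psmb5, Psmb6, Psmb7, members past a 2-fold change and the extremes of each group; the remaining members were named freely. From the other lists the most changed called genes were named, up to 4, and others there were chosen after their values were seen. Gene positions and transcript lengths came from GENCODE M21 (GRCm38), which shares 55141 of the identifiers without version. Copies were transcripts found with blastn 2.17.0 at 95% identity or more over at least 200 bp. Promoters came from RefSeq (GRCm38.p6). Alternatives were other scalings (size factors of DESeq2, upper quartile, library size only), other tests (DESeq2 1.42.0, limma-voom of limma 3.58.1), no low-count filter or a threshold of CPM of 1 in 3 samples, a block for the replicate number, each library left out in turn, the authors' deposited table and, added after seeing the data, the reads of near-identical copies. A planned comparison of protein sequences between subunits was not run.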

Additional observations from a re-analysis of the deposited data

How the results depend on the processing

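Of the 25 called members, 18 passed in the same direction in all 16 other settings, and the exceptions were Psmb2, Psmb4, Psmd3, Psme1, Psme2, Psme4 and Psmg4. Of the 23 uncalled members, 9 passed in at least 1 setting and 5 changed sign. With scaling by library size only, the log2 fold change changed sign to -0.035 for Psma4, -0.034 for Psmc2, -0.0072 for Psmc6 and -0.022 for Psmd6. Without single libraries it ranged from -0.0080 to 0.12 for Psma4, from -0.24 to 0.019 for Psmc1, from -0.014 to 0.12 for Psmc6 and from -0.017 to 0.13 for Psmd6. No value of changed sign passed, and the cause was not tested.

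Scaling by library size only moved the median of all tested genes to -0.09. Members then split into 14 higher and 11 lower, with 3 regulatory genes lower and 0 core beta genes higher, and all tested genes into 21.9% higher and 30.4% lower. With the filter of CPM of 1 in 3 samples, 5 core alpha and 2 core beta genes were higher and 0 core beta genes lower, and members split into 20 higher and 7 lower. The count of core beta genes lower was also 0 with the size factors of DESeq2, its Wald test and the authors' deposited table. Leaving out each library in turn gave 13 to 19 members higher and 6 to 8 lower. The ranges by group were 3 to 5 core alpha higher, 0 to 2 core beta higher, 0 to 0 core beta lower, 10 to 13 regulatory higher, 1 to 2 regulatory lower, 4 to 5 immunoproteasome and PA28 genes lower and 1 to 2 assembly genes lower. All tested genes gave 3265 to 4137 higher and 3451 to 4360 lower. Differences of the log2 pair ratios ran from -1.17 to -1.05 for Psmb8 to Psmb5, from -1.95 to -1.75 for Psmb9 to Psmb6 and from -1.61 to -1.19 for Psmb10 to Psmb7. With the replicate number as a block, 18 members were higher and 8 lower, with Psma1 and Psmd9 gained and Psme1 lost. Deviations of same-numbered samples correlated at 0.21, 0.03 and 0.08, and control replicate 2 correlated best with NETs-treated replicate 3. With so few libraries in a group, these values cannot decide whether same-numbered samples were paired. Psme2b has no value with copies added, since it was itself the copy.

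Each group has 3 samples, and the cells were labelled in 2 ways. At this depth every tested member had at least 127 reads in every library, the lowest being Psmc3ip, and depth limits what can be said of Psma8 and Psmb11. Counts of transcripts say nothing of protein or of assembled particles.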
